A study of Rattus norvegicus with 4 samples.

Results

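The muscle microRNAs (miRNAs, short RNAs that repress target mRNAs) of the rat fracture callus are miR-1-3p, miR-133a-3p, miR-133a-5p, miR-133b-3p, miR-206-3p, miR-499-5p and miR-208a-5p. They were taken by name from the array, which carried 727 rat miRNAs with 1 spot each, and all 7 were present and were detected on all 4 arrays. Callus, the repair tissue that forms around a broken bone, came from 12-week-old male Sprague-Dawley rats with a closed transverse fracture of the right femoral shaft, which was held by a K-wire of 1.25 mm. The diabetic day 11 and diabetic day 5 groups had received 1 intravenous dose of 40 mg/kg streptozotocin, a toxin of insulin-producing beta cells, and had a blood glucose over 300 mg/dl. The control day 11 and control day 5 groups had received sodium chloride and had normal glucose. Each group is 1 array of RNA from a pool of 5 animals, so there is no replicate, no p-value was computed, and the number of arrays limits the precision of every difference. Between 482 and 560 of the 727 miRNAs were detected per array.

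The miRNAs miR-1, miR-133a, miR-133b, miR-206 and miR-499 are made almost only in muscle cells and are often called myomiRs. In mouse muscle cells miR-1 and miR-206 promote differentiation, and miR-133 acts on proliferation. miR-206 is typical of skeletal muscle, whereas miR-1 and miR-133a are also abundant in the heart. miR-499 and the miR-208 miRNAs are carried within myosin heavy chain genes, miR-499 and miR-208b being linked to slow muscle fibres and miR-208a to the heart. In a whole-tissue RNA sample, fewer muscle cells and less of a miRNA per cell cannot be told apart.

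The mature sequences show which members share a seed, the stretch at bases 2 to 8 that pairs with target mRNAs. They are given 5′ to 3′ from RefSeq (GRCr8), which held all 7 members, with the seed in capitals.
rno-miR-1-3p: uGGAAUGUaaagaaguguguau
rno-miR-206-3p: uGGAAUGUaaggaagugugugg
rno-miR-133a-3p: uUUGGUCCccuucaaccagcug
rno-miR-133b-3p: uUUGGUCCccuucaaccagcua
rno-miR-133a-5p: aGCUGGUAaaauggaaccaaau
rno-miR-499-5p: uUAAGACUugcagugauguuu
rno-miR-208a-5p: gAGCUUUUggcccggguuauac
miR-1-3p and miR-206-3p share the seed GGAAUGU and differ at 3 of 22 bases, A11G, A21G and U22G, counted from 1 at the 5′ end with the base of miR-1-3p first. miR-133a-3p and miR-133b-3p share the seed UUGGUCC and differ at 1 base, the last (G22A). The other 3 members each have a seed that no other member has. Because the probe sequences were not used here, signal that the probes of such near-identical miRNAs may share could not be separated, least of all for miR-133a-3p and miR-133b-3p.

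The members lie at few places in the genome, and whether neighbours share a transcript was not tested. miR-1-3p (chr18:2160339-2160360, minus strand) and miR-133a-3p (chr18:2157886-2157907, minus strand) lie in hairpins 2368 bases apart within the bounds of the protein-coding gene Mib1. miR-206-3p (chr9:30590747-30590768, plus strand) and miR-133b-3p (chr9:30594629-30594650, plus strand) lie in hairpins 3801 bases apart within the bounds of a long noncoding RNA gene. miR-499-5p (chr3:164570616-164570636, plus strand) lies within Myh7b and miR-208a-5p (chr15:32395599-32395620, minus strand) within Myh6. The related miR-1b, which differs from miR-1-3p at 1 base (G17A), had no row of that name on the array.

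From day 5 to day 11 the muscle miRNAs moved in opposite directions by member. The 6 myomiRs were lower on day 11 than on day 5 in diabetic and in control callus, most of them about 3-fold, and miR-208a-5p was higher in both. A level is the spot intensity after subtraction of the blank-spot mean, on a scale where 400 commonly detected miRNAs have a median of 100 on each array. Levels compare arrays for 1 miRNA and not miRNAs with each other. The technical error beside a log2 difference combines the scatter of the spike control spots with that of the blank spots, and holds nothing of the variation among animals, pools or hybridisations. The choice to read differences against this error was made after the values had been seen.

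miR-1-3p had a level of 2564 on day 11 and 8787 on day 5 in diabetic callus, and of 2767 on day 11 and 8527 on day 5 in control callus. Both day 11 arrays lay far below both day 5 arrays, and within a day the groups were close. The day 11 level was 3.43-fold lower than on day 5 in diabetic callus (log2 -1.78 ± 0.12 technical error) and 3.08-fold lower in control callus (log2 -1.62 ± 0.10). Over the alternatives the difference ran from -2.28 to -1.65 in diabetic and from -2.10 to -1.55 in control callus. The local background was 43.6% of the spot of miR-1-3p on the control day 11 array and 1.95% on the control day 5 array. It was 21.7% on the diabetic day 11 and 2.64% on the diabetic day 5 array, and its part was not tested. miR-133a-3p, which lies beside miR-1 in the genome, had levels of 2216 on day 11 and 7192 on day 5 in diabetic callus, and of 2246 on day 11 and 6665 on day 5 in control callus. Its log2 differences of -1.70 ± 0.12 in diabetic and -1.57 ± 0.10 in control callus were above those of miR-1-3p by 0.079 ± 0.17 and 0.055 ± 0.14, less than the technical error of these gaps. The gaps depended on the processing. Over the alternatives they ran from -0.015 to 0.53 in diabetic and from -0.081 to 0.51 in control callus.

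miR-133b-3p had levels of 2815 on day 11 and 8607 on day 5 in diabetic callus, and of 2680 on day 11 and 8301 on day 5 in control callus. The log2 difference was -1.61 ± 0.12 in diabetic and -1.63 ± 0.10 in control callus. Over the alternatives the difference of miR-133b-3p ran from -2.08 to -1.48 in diabetic and from -1.85 to -1.35 in control callus. Its genomic neighbour miR-206-3p, the member most typical of skeletal muscle, had levels of 2338 on day 11 and 4931 on day 5 in diabetic callus, and of 1667 on day 11 and 4611 on day 5 in control callus. The day 11 arrays were again the low ones, but the 2 neighbours did not fall by the same amount everywhere. In control callus miR-206-3p was 2.77-fold lower on day 11 (log2 -1.47 ± 0.10), and miR-133b-3p changed by -0.16 ± 0.14 more than that. In diabetic callus miR-206-3p was 2.11-fold lower (log2 -1.08 ± 0.12), and the gap to miR-133b-3p was -0.54 ± 0.17, over 3 technical errors. miR-206-3p also fell less than its seed relative miR-1-3p in diabetic callus, by 0.70 ± 0.17 on the log2 scale, against 0.16 ± 0.14 in control callus. Over the alternatives this gap ran from 0.69 to 0.996 in diabetic and from 0.16 to 0.47 in control callus.

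The dimmer members had wider errors. miR-499-5p, the slow-fibre miRNA of Myh7b, had levels of 66.1 on day 11 and 159 on day 5 in diabetic callus, and of 50.9 on day 11 and 253 on day 5 in control callus. Its control day 5 array stood above the other 3. The log2 difference was -1.27 ± 0.18 in diabetic and -2.31 ± 0.19 in control callus, where only 1 of the 446 miRNAs detected on both arrays had a lower value. With the local background in place of the blank spots and quantile normalisation, the differences were smaller, -0.55 in diabetic and -1.52 in control callus. miR-133a-5p, the other arm of the miR-133a hairpin, had levels of 63.8 on day 11 and 189 on day 5 in diabetic callus, and of 52.9 on day 11 and 104 on day 5 in control callus. Its log2 difference was -1.56 ± 0.18 in diabetic and -0.97 ± 0.20 in control callus, and -1.15 in diabetic and -0.67 in control callus with the local background and quantile normalisation. In control callus on day 11, 71.4% of the spot intensity of miR-133a-5p and 70.4% of that of miR-499-5p was reached by the local background; its part in their differences was not tested. Falls of dim spots came out too large in a simulation of the blank correction. How far that reaches these 2 members, or the change of miR-208a-5p with its dim day 5 spots, was not tested.

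miR-208a-5p, an arm of the heart miRNA hosted by Myh6, had levels of 253 on day 11 and 67.8 on day 5 in diabetic callus, and of 223 on day 11 and 75.7 on day 5 in control callus. Both day 11 arrays lay above both day 5 arrays. The rise was 3.73-fold in diabetic callus (log2 1.90 ± 0.17, with 1 of 444 miRNAs higher) and 2.94-fold in control callus (log2 1.56 ± 0.14, the 12th highest of 446). Before subtraction and scaling, the spot was 197 on the diabetic day 11 and 185 on the diabetic day 5 array. The diabetic day 11 array was the dimmer, with a spike control mean of 14228 against 32264, and the scale factors were 2.05 and 0.987. In control callus the spot was 414 on day 11 and 212 on day 5, with factors of 0.814 and 0.827. With the local background and quantile normalisation it was 0.97 in diabetic and 0.18 in control callus, so that the direction held and the 2-fold size did not. The local background was 44.9% of the spot on the diabetic day 11 array and 70.4% on the control day 11 array. It was 46.4% of the spot on the diabetic day 5 array and 40.3% on the control day 5 array, and its part in the rise was not tested. The rise of this arm had no counterpart in the other arm, miR-208a-3p, whose spot was not above the detection limit (the blank mean plus 2 SD) on either day 11 array. miR-208a-3p passed that limit on the diabetic day 5 array alone, 2.35 blank SDs above the blank mean. The RefSeq hairpin of miR-208a (chr15:32395552-32395634, minus strand) is shown with the 5p and then the 3p arm in capitals, to set both arms side by side.
Mir208a: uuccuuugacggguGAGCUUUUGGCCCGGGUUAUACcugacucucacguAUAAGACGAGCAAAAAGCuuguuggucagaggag

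**Figure D1:**
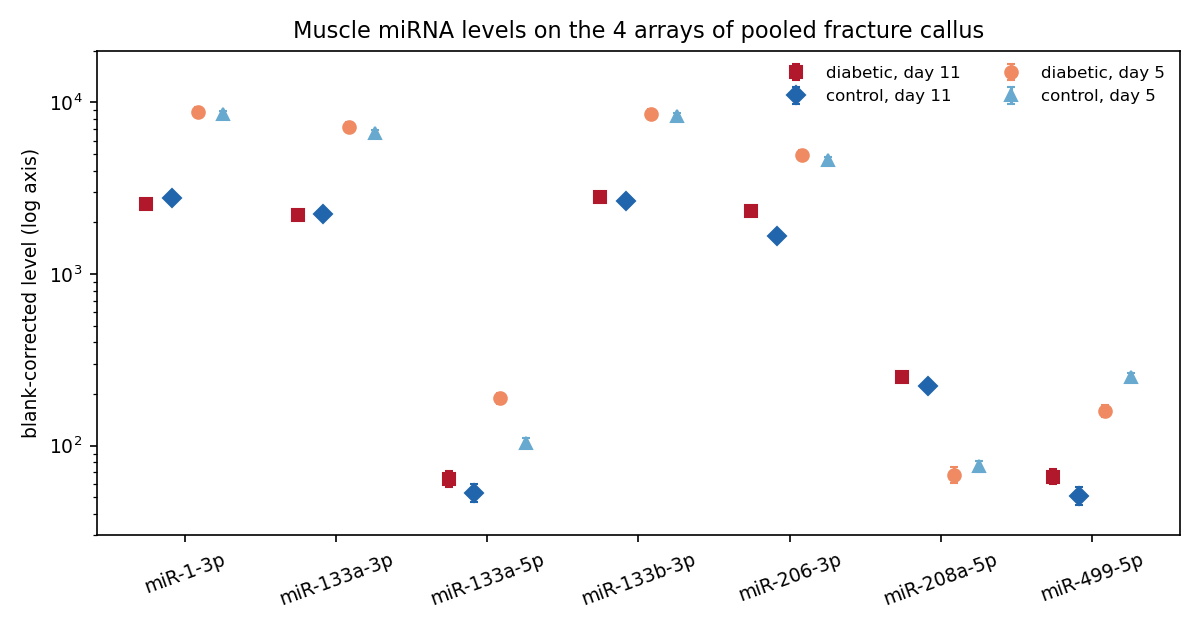
Blank-corrected level (log axis) of the 7 muscle miRNAs on the diabetic day 11, control day 11, diabetic day 5 and control day 5 arrays, 1 pool of 5 animals each; bars are 1 technical error. The day 11 points lie below the day 5 points for 6 members and above them for miR-208a-5p (253 and 223 on day 11, 67.8 and 75.7 on day 5).

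Counted at 2-fold, 6 of the 7 members were lower on day 11 in diabetic callus, where 8.11% of 444 miRNAs were, and 1 was higher, where 3.83% were. In control callus 5 of the 7 were 2-fold lower, against 6.95% of 446 miRNAs, and 1 was higher, also against 6.95%. miR-133a-5p was the myomiR short of 2-fold in control callus. With the local background and quantile normalisation, 5 members in each group were 2-fold lower, where 2.7% of miRNAs were in diabetic and 6.28% in control callus. None was then 2-fold higher, where 1.13% were in diabetic and 4.04% in control callus. The median log2 difference of the 7 members was -1.56 in diabetic and -1.57 in control callus, beside medians of 0.0065 and 0.028 over all miRNAs detected on both arrays. The 4 bright members lay among the 30 lowest of 444 differences in diabetic callus and among the 13 lowest of 446 in control callus. The 2 comparisons share no array.

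**Figure D2:**
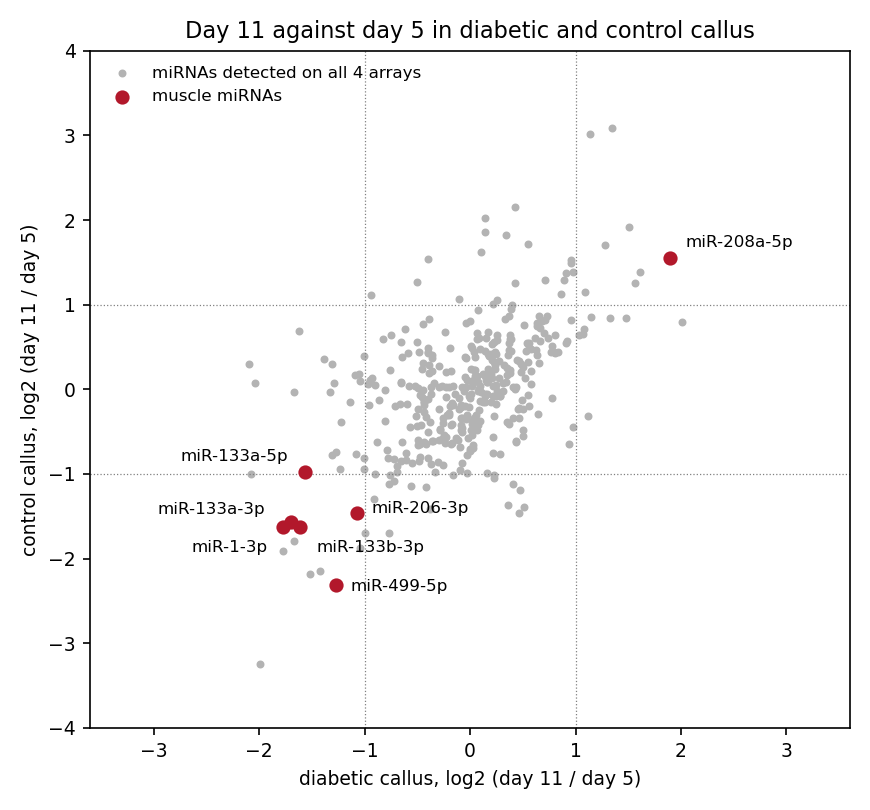
Each point is 1 of the 400 miRNAs detected on all 4 arrays, with the log2 ratio of day 11 over day 5 in diabetic callus on the horizontal axis and in control callus on the vertical axis; dotted lines mark 2-fold. The 6 myomiRs lie at the lower left, between -1.78 and -1.08 in diabetic and between -2.31 and -0.97 in control callus, and miR-208a-5p lies at the upper right (1.90 and 1.56).

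Whether the day effect differed between diabetic and control callus was read from the difference of the 2 log2 differences, which uses all 4 arrays. It was -0.15 ± 0.16 for miR-1-3p, -0.13 ± 0.16 for miR-133a-3p and 0.018 ± 0.16 for miR-133b-3p, each within 1 technical error. None of these 3 kept its sign under all alternatives, and the authors' values gave -0.52, -0.49 and -0.35, over 2 technical errors below 0. That scaling moves all miRNAs of an array alike. With it the median day 11 minus day 5 difference over all miRNAs was -0.29 in diabetic and 0.099 in control callus. For miR-206-3p it was 0.39 ± 0.16. For miR-208a-5p it was 0.35 ± 0.22, with a change of sign to -0.019 in the authors' values. These differences were chosen for report after the values had been seen. For miR-133a-5p it was -0.59 ± 0.27, a larger fall in diabetic callus. miR-499-5p had the widest gap among the members, 1.04 ± 0.27, a smaller fall in diabetic callus, and ranked 18th highest of the 400 miRNAs detected on all arrays. Over these 400 miRNAs the 5th and 95th percentiles were -1.32 and 0.97, so that the other 6 members lay inside that range.

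Diabetic callus was then compared with control callus within each day, which asks whether the muscle miRNAs of the callus differ under diabetes. On neither day was a member 2-fold different. On day 11, 4.85% of 433 miRNAs were 2-fold lower in diabetic callus and 3.93% higher. On day 5, 2.56% of 468 miRNAs were 2-fold lower and 4.27% higher. With the local background and quantile normalisation no member was 2-fold different either, where 3.93% were lower and 2.77% higher on day 11, and 0.214% lower and 0.214% higher on day 5. The bright members miR-1-3p, miR-133a-3p and miR-133b-3p differed by -0.11 ± 0.11, -0.020 ± 0.11 and 0.071 ± 0.11 on day 11 and by 0.043 ± 0.11, 0.11 ± 0.11 and 0.052 ± 0.11 on day 5. These 6 differences are near 1 technical error or below it, and no sign held under all alternatives, where miR-1-3p on day 11 ran from -0.31 to 0. With the local background and quantile normalisation the 3 day 11 differences were -0.31, -0.35 and -0.32, each over 2 technical errors below 0. With blank subtraction and median scaling the member median was 0.19 on day 11 and 0.052 on day 5, beside 0.034 and 0.038 over all miRNAs.

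The gap was beyond 2 technical errors for miR-206-3p on day 11 and for miR-133a-5p and miR-499-5p on day 5. How many of all miRNAs had such a gap was not counted. On day 11 miR-206-3p was 1.40-fold higher in diabetic callus, at 2338 against 1667 in control callus (log2 0.49 ± 0.11, the 69th highest of 433). On day 5 it was at 4931 in diabetic and 4611 in control callus (log2 0.097 ± 0.11), and its sign turned with spike scaling (-0.056). On day 5 miR-133a-5p was 1.81-fold higher in diabetic callus, at 189 against 104 in control callus (log2 0.86 ± 0.14). This ranked 34th highest of 468 miRNAs, and on day 11 it was at 63.8 in diabetic and 52.9 in control callus (log2 0.27 ± 0.23). On day 5 miR-499-5p was 1.59-fold lower in diabetic callus, at 159 against 253 in control callus (log2 -0.66 ± 0.13, the 28th lowest of 468). On day 11 it was at 66.1 in diabetic and 50.9 in control callus (log2 0.37 ± 0.23). miR-208a-5p differed by 0.19 ± 0.12 on day 11 and by -0.16 ± 0.19 on day 5, where the authors' values gave 0.14.

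**Figure D3:**
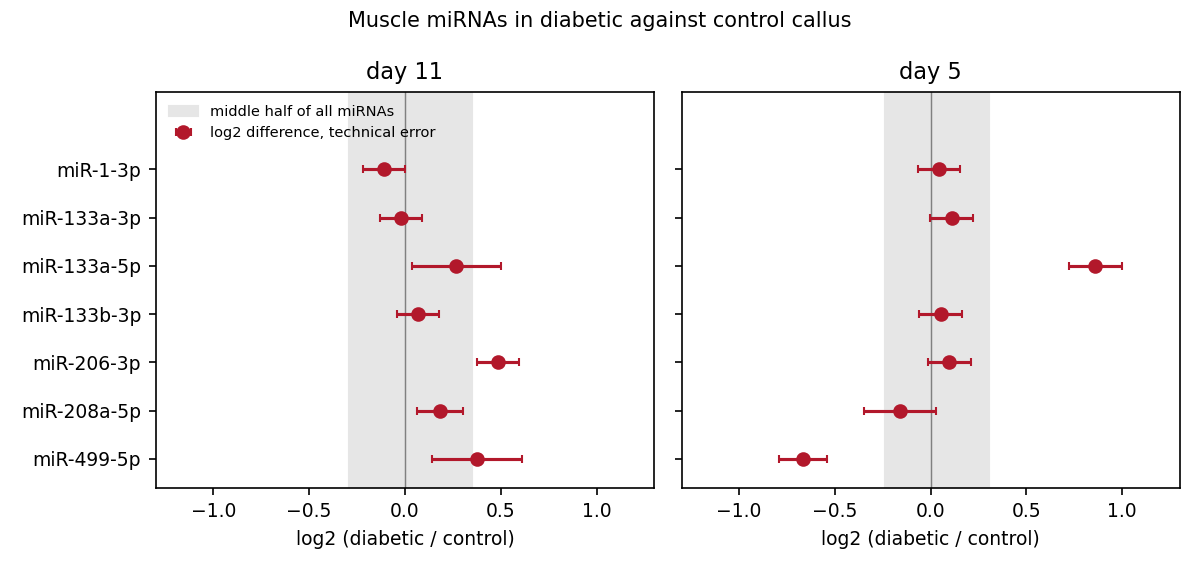
Log2 ratio of diabetic over control callus for the 7 muscle miRNAs on day 11 (left) and day 5 (right), with 1 technical error; the grey band spans the 25th to the 75th percentile of all miRNAs detected on both arrays. miR-206-3p and miR-499-5p on day 11 (0.49 and 0.37), and miR-133a-5p and miR-499-5p on day 5 (0.86 and -0.66), lie outside the band.

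Ordered by level, the arrays ran diabetic day 5, control day 5, control day 11 and diabetic day 11 for miR-1-3p and miR-133a-3p, and each day's pair of arrays lay within 2 technical errors of each other. For miR-133b-3p the day 11 arrays stood in the other order, again within 2 errors. For miR-206-3p diabetic day 11 lay above control day 11 by more than 2 errors, and the day 5 pair within them. For miR-133a-5p the order was diabetic day 5, control day 5, diabetic day 11 and control day 11, and only the last pair was within 2 errors. For miR-499-5p it was control day 5, diabetic day 5, diabetic day 11 and control day 11, likewise with only the last pair within 2 errors. For miR-208a-5p it was diabetic day 11, control day 11, control day 5 and diabetic day 5, with both same-day pairs within 2 errors.

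The arms of the miR-133a hairpin (chr18:2157872-2157958, minus strand) differed in how they moved. They are shown in capitals, 5p and then 3p, because they are cut from 1 precursor.
Mir133a1: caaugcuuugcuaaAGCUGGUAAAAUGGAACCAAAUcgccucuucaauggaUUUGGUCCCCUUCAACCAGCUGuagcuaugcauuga
On day 5 the log2 difference between diabetic and control callus was 0.75 ± 0.18 larger for miR-133a-5p than for miR-133a-3p. On day 11 it was 0.29 ± 0.26 larger. From day 5 to day 11 the 5p arm fell less than the 3p arm in control callus, by 0.59 ± 0.22, and the gap was 0.13 ± 0.22 in diabetic callus. The spot of miR-133a-5p touched the spots of the bright miRNAs miR-223-3p and miR-199a-5p at its corners. The intensity of the miR-223-3p spot was 458 on the diabetic day 11 array, 876 on the control day 11 array, 3289 on the diabetic day 5 array and 6981 on the control day 5 array. It was thus lower on day 11 than on day 5, as miR-133a-5p was, and on day 5 lower in diabetic callus, where miR-133a-5p was higher. The part of this neighbour in the values of miR-133a-5p was not tested.

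Of 17 muscle miRNA names in a wider list, 15 were on the array, 8 of them no members. Of those 8, only miR-133c and miR-208b-3p were detected on all 4 arrays, and miR-1-5p and miR-208b-5p on none. miR-208b-3p, from the slow myosin gene Myh7, stayed near the detection limit, at 15.7 and 13.0 in diabetic and control callus on day 11 and at 23.5 and 12.7 on day 5. The 4 others, miR-133b-5p, miR-206-5p, miR-208a-3p and miR-499-3p, passed the limit on day 5 arrays alone. miR-133b-5p lay 3.56 blank SDs above the blank mean in diabetic and 3.23 in control callus, and miR-206-5p 2.14 and 2.30. miR-208a-3p and miR-499-3p passed it in diabetic callus only, at 2.35 and 2.18 blank SDs. No fold is given for them, since their day 11 spots were not above the limit.

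miR-133c carries the miR-133 name but not the sequence of that family. Its 21 bases are the exact reverse complement of miR-133a-3p from base 2 onwards, and RefSeq places it on the plus strand at chr18:2157886-2157906, opposite miR-133a-3p. It is shown because its values part from those of miR-133a.
rno-miR-133c: cAGCUGGUugaaggggaccaa
miR-133c had levels of 84.7 on day 11 and 76.4 on day 5 in diabetic callus, and of 111 on day 11 and 103 on day 5 in control callus. Its day 11 minus day 5 difference was 0.15 ± 0.19 in diabetic and 0.11 ± 0.14 in control callus, so that the change of miR-133a-3p was lower than that of miR-133c by 1.85 ± 0.22 and 1.68 ± 0.17 on the log2 scale. Over the alternatives this gap ran from 1.55 to 2.21 in diabetic and from 0.67 to 2.06 in control callus. Between diabetic and control callus miR-133c differed by -0.39 ± 0.17 on day 11 and by -0.42 ± 0.17 on day 5. With the local background and quantile normalisation the day 11 difference turned to 0.32 and the day 5 difference was -0.31. The day 11 minus day 5 difference of miR-133c then also turned, to -0.098 in diabetic and -0.73 in control callus. The local background was 36.8% to 77.3% of its spot.

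By a measure of likeness, the root mean square distance between log2 profiles over the 4 arrays after centring, the non-members nearest to the mean profile of the 7 members were miR-299a-3p (0.12), miR-582-5p (0.13), miR-20b-5p (0.13), miR-99b-3p (0.15) and miR-339-5p (0.15). That mean is drawn toward 0 by miR-208a-5p, whose own distance to it was 1.41, against 0.15 to 0.44 for the other 6 members. A second measure, chosen after the values had been seen, took miR-1-3p alone as the pattern. The members miR-133a-3p and miR-133b-3p then lay at 0.052 and 0.075. The spots of miR-133b-3p and miR-1-3p lay side by side on the array, and the part of this in their likeness was not tested. The nearest non-members were miR-150-5p, a lymphocyte miRNA (0.070), miR-7a-5p (0.14), the leukocyte miRNAs miR-142-5p (0.23) and miR-142-3p (0.24), and miR-18a-5p (0.31).

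Marker miRNAs of other cell types moved between the same arrays. Of 6 leukocyte miRNAs, 5 were detected on both arrays of each day comparison. All 5 were lower on day 11 than on day 5 in diabetic callus, and 4 of 5 in control callus. Their summed level was 1559 on day 11 and 5208 on day 5 in diabetic callus, and 1326 on day 11 and 8468 on day 5 in control callus. The 6 cartilage miRNAs, among them miR-140-3p of chondrocytes, summed to 5825 on day 11 and 2756 on day 5 in diabetic callus, and to 18426 on day 11 and 2512 on day 5 in control callus, and 5 of 6 and 6 of 6 were higher on day 11. The 7 muscle miRNAs summed to 10316 on day 11 and 29932 on day 5 in diabetic callus, and to 9687 on day 11 and 28536 on day 5 in control callus. Each such sum is carried by its brightest spots, and the muscle sum hides the opposite move of miR-208a-5p. All leukocyte and cartilage markers were detected on the day 5 arrays, and miR-223-5p on neither day 11 array. The erythroid miRNAs miR-451-5p and miR-144-3p had day 11 minus day 5 differences of 0.10 and 0.14 in diabetic callus, near the technical error, and of 1.62 and 1.85 in control callus. With the local background and quantile normalisation the control values were -2.34 and 0.23, so that the direction of miR-451-5p turned. The endothelial miRNAs miR-126a-3p and miR-126a-5p differed by -0.40 and -0.37 in diabetic and by -0.81 and -0.89 in control callus. The part of these other cells in the muscle miRNA differences was not tested. Between diabetic and control callus on day 11 the muscle sums differed far less than the cartilage sums did.

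**Figure D4:**
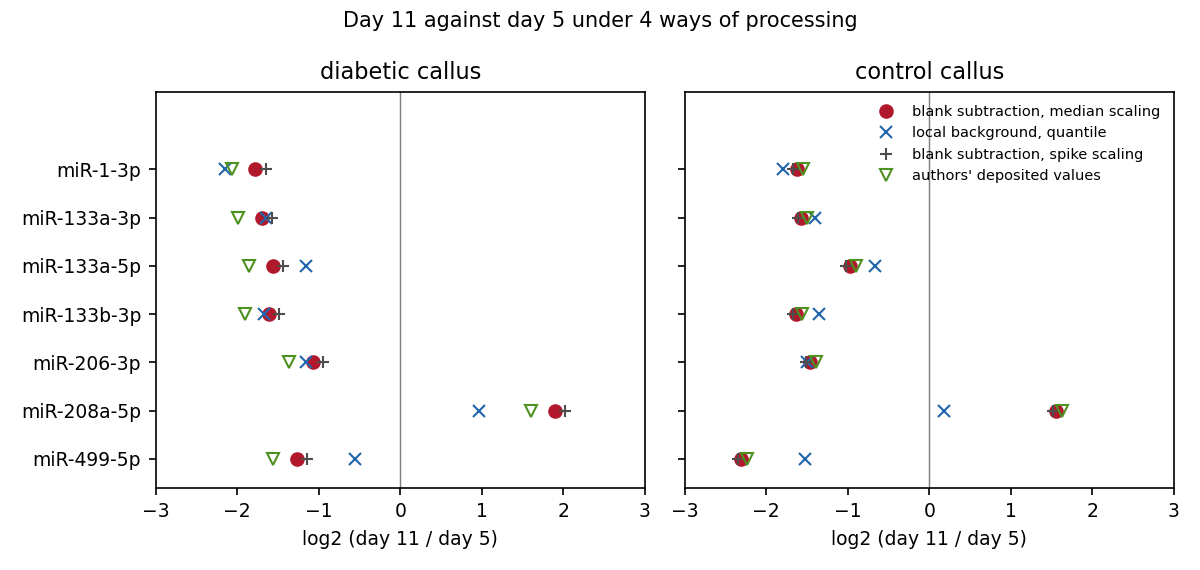
Log2 ratio of day 11 over day 5 for the 7 muscle miRNAs in diabetic (left) and control callus (right) under 4 ways of processing: blank subtraction with median scaling, local background with quantile normalisation, blank subtraction with spike scaling, and the authors' deposited values. All points keep their side of 0. With the local background miR-208a-5p (0.97 and 0.18), miR-499-5p (-0.55 and -1.52) and miR-133a-5p (-1.15 and -0.67) lie nearer to 0 than under the other 3 ways. miR-1-3p (-2.15 and -1.80) then lies farther from 0.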

How the data were processed

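The intensity at 635 nm of each spot and of its local background was taken from the deposited scanner output, per the file headers read at 3 gains and with no background subtracted. Per the labels' protocols, RNA of pooled tissue was labelled with Cy5 on a 3D-Gene array. Software and annotation release are not given in the sources used here. Each array had 1504 blank spots and 8 spots for each of 2 spike controls. No miRNA spot was marked unusable, and 1 marked spot on the control day 5 array was left out.

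The blank mean (5% trimmed at each end) was subtracted, a miRNA counted as detected above it by 2 SD, and each array was scaled to a median of 100 over 400 miRNAs. Blank spots were used in place of the local background (the more usual normexp and quantile steps are an alternative), because an earlier look at these data had found that the local background follows the spot. Over the 727 miRNA spots of an array its rank correlation with the spot was 0.58 to 0.80, as a description. The members' shares vary: it was 23.8% to 71.4% of the spot for the members on the control day 11 array, and 1.27% to 42.2% on the control day 5 array. The authors' deposited intensity values equalled the same subtraction times 1 factor per array, to within 0.114%, and were an alternative.

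Differences of at least 2-fold were counted among miRNAs detected on both arrays. The technical error combined the scatter of spike spots (log2 SD 0.057 to 0.096) with the blank SD. The calculation was tested on simulated arrays. The first 2 versions of that test returned falls larger than those put in, in sets with many dim probes. The simulation was then changed, not the calculation: known changes were balanced and judged only on brighter probes, where they were recovered. The test thus says nothing for dim spots, such as those of miR-133a-5p and miR-499-5p on the diabetic day 11 array. These lay 10.8 and 11.1 blank SDs above the blank mean. miR-208a-5p lay little higher, at 12.1 on the diabetic and 15.1 on the control day 5 array, and its rise was not tested in this way. Alternatives used limma 3.58.1 under R 4.3.3 (normexp, offset 50). Named miRNAs were the members, detected miRNAs of the wider muscle list and the 5 nearest profiles; others are said to be chosen later. The members, lists and settings were chosen with earlier results of these data known. Sequences and coordinates are from RefSeq (GRCr8), matched by miRNA name.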

Additional observations from a re-analysis of the deposited data

How the results depend on the processing

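All 7 members kept the direction of their day 11 minus day 5 difference in both groups under all 8 alternatives. The member median in control callus was -1.40 with normexp on the local background and quantile normalisation, and -1.80 with blank subtraction and quantile normalisation. It was -1.15 in diabetic callus with normexp on the local background and quantile normalisation, -1.44 with spike scaling, -1.44 with the 75th percentile and -1.86 with the authors' values. The count of members 2-fold higher on day 11 was 0 in both groups with normexp on the local background, under either normalisation. Over all miRNAs the count was then 0 of 444 in diabetic and 10 of 446 in control callus with median scaling. With quantile normalisation it was 5 of 444 and 18 of 446. For diabetic minus control on day 5 the median was -0.076 with normexp on the local background and median scaling, -0.10 with spike scaling and 0.35 with the authors' values. With the authors' values 1 member, miR-133a-5p, was 2-fold higher, as were 47 of all 468 miRNAs. With the authors' scaling the median over all miRNAs was 0.34 in that comparison, against 0.038 here, and -0.29 in the diabetic comparison of the days, against 0.0065. The causes of these shifts were not tested, apart from the authors' scaling, which adds 1 constant per array. Over all miRNAs, the counts 2-fold lower and 2-fold higher on day 11 were 36 and 17 in diabetic callus, with 12 to 62 and 0 to 30 under the alternatives, and 31 and 31 in control callus, with 26 to 43 and 10 to 42. For diabetic against control they were 21 and 17 on day 11, with 14 to 31 and 8 to 26, and 12 and 20 on day 5, with 0 to 21 and 1 to 47. Of 224 single-member values under alternatives, 147 stayed within 1 technical error of the value given and 77 moved further.

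The day-effect gap of miR-499-5p ranged from 0.67 (authors' values) to 1.21 (spike scaling), while that of miR-206-3p was 0.026 with the authors' values and 0.56 with spike scaling. With these same 2 settings it was -0.52 and 0.014 for miR-1-3p, -0.49 and 0.038 for miR-133a-3p, and -0.35 and 0.19 for miR-133b-3p. The day 11 minus day 5 difference of the erythroid miR-451-5p in control callus, 1.62 here, turned to -2.28 with normexp on the local background and median scaling and to -2.34 with quantile normalisation, settings added after the data had been seen. The 5p-minus-3p gap of miR-133a on day 5 was between 0.72 and 0.89. No paired analysis was possible because each group had 1 array, and leaving out a replicate or blocking by slide could not be done for the same reason. Signal over the blanks limits miR-133a-5p, miR-499-5p and miR-208a-5p, which were 8.89 to 50.4 blank SDs above the blank mean, against 291 or more for the other 4 members.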

Other observations

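The profile of miR-208a-5p, which moved against the other muscle miRNAs, was nearest to those of miR-760-3p (root mean square distance 0.19), miR-129-2-3p (0.24), miR-3546 (0.29), miR-195-3p (0.31) and miR-30c-1-3p (0.33). This list was drawn up after the values had been seen. One of them, miR-3546, comes from the same place in the genome. RefSeq sets it on the plus strand at chr15:32395601-32395622, where 20 of its 22 bases lie opposite miR-208a-5p, within Myh6.
rno-miR-3546: aUAACCCGggccaaaagcucac
miR-3546 had levels of 56.8 on day 11 and 14.1 on day 5 in diabetic callus, and of 42.6 on day 11 and 24.5 on day 5 in control callus. Its log2 difference was 2.01 ± 0.61 in diabetic and 0.80 ± 0.37 in control callus, beside 1.90 and 1.56 for miR-208a-5p. On day 5 its diabetic level was close to the detection limit of the array, whose lowest detected level was 11.2.

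Another miRNA opposite a muscle miRNA, miR-3571, overlaps miR-1-3p by 21 bases. Its levels, close to the lowest detected ones, were 13.1 on day 11 and 13.2 on day 5 in diabetic callus, and 15.5 on day 11 and 16.7 on day 5 in control callus. Its differences were -0.0039 ± 0.90 and -0.10 ± 0.69, with errors too wide to say whether it moved with miR-1-3p.

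The miRNAs of vascular smooth muscle, miR-143 and miR-145, belong to a different kind of muscle. All 4 of their arms were detected on every array. None was 2-fold different in any of the 4 comparisons, which with 4 arms is near the share over all miRNAs (8.11% lower and 3.83% higher over time in diabetic callus, 6.95% each way in control callus). Their summed level was 4319 on day 11 and 4259 on day 5 in diabetic callus, and 4397 on day 11 and 4145 on day 5 in control callus. The median log2 difference of day 11 minus day 5 was 0.041 in diabetic and 0.075 in control callus. The lowest single values over time were -0.59 for miR-143-5p in diabetic and -0.57 for miR-145-3p in control callus. Between diabetic and control callus on day 11, miR-145-3p differed by 0.91 and miR-143-5p by -0.72. In that comparison miR-143-3p differed by 0.095 and miR-145-5p by 0.018.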
